A study of Mus musculus with 43 samples.

Results

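The ATP-binding cassette (ABC) genes were followed along the female mouse proximal tubule, from S1 through S2 to S3. Members were taken from the deposited expression table by symbol: Abc, then a subfamily letter (A, B, C, E, F or G), a number and at most 1 further letter. The rule leaves out subfamily D, and 1 subfamily G gene was also left out. The 44 genes described here, among the 54532 in the table, are 16 of subfamily A, 9 of B, 10 of C, 1 of E, 3 of F and 5 of G. All mice were C57BL/6, aged 6 to 8 weeks. The RNA-seq groups used here were female S1 (6 libraries), S2 (6 libraries) and S3 (7 libraries), each library made from 2 to 5 microdissected tubules, and the labels name no treatment. The library titles carry numbers, 2 different ones in S1, then 3 in S2 and 4 in S3, and S1 and S2 share none. The labels do not say what the numbers mark. If they mark animals, animal and segment cannot be told apart between S1 and S2. The 24 ATAC-seq libraries, of both sexes, were not analysed here.

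ABC proteins bind and split ATP, and most of them use that energy to move a substrate across a membrane. In the proximal tubule, which secretes drugs, conjugates and organic anions into urine, members of subfamilies B and C carry substrates out of the cell. Abcc2 and Abcc4 are known at the brush border and Abcc1, Abcc3, Abcc5 and Abcc6 at basolateral membranes. Subfamily A and G members move lipids and sterols, several subfamily B members sit in mitochondria, and the E and F proteins have no membrane part and act on ribosomes and translation.

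Expression was given by the authors as TPM, a length-corrected share of all transcripts, with 1 value per gene and segment and no value per library. No test was therefore possible, and no SD, n or p-value belongs to any value below. Depth is unknown, and TPM is rounded to 0.1. Segments were compared by the difference of log2(TPM + 1), a scale on which folds of weakly expressed genes come out too small. A gene counts as higher or lower where this difference is at least 1, that is 2-fold. Genes reaching 1 TPM in any segment entered the comparison: 25 members (56.8%), and 16053 genes of the table as a whole (29.4%). 3 of the 25, Abcb1a, Abcc9 and Abcg1, reached that level only in S2 and so could enter only by being high there.

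The segment labels were checked against markers. The 6 S1 markers summed to 19036 TPM in S1, then 2474 in S2 and 58 in S3. The 4 S3 markers summed to 8.7, 3682 and 6075 TPM, and the 3 S2 markers to 305.5, 792.7 and 2.8 TPM. All 6 S1 markers set S1 apart from both others and all 4 S3 markers set it below both, but 0 of the 4 differed 2-fold between S2 and S3, where the 3 S2 markers all did. Markers of other cells differed in where they peaked. The 10 endothelial markers summed to 75.6, 711.6 and 281.1 TPM in S1, S2 and S3, the 10 immune markers to 57.8, 309.4 and 97.2, and the 10 stromal and mural markers to 3, 23.5 and 2.7. None of these 30 markers was listed at 0 in any segment. The 5 podocyte markers summed to 2.4, 16.7 and 4.8 TPM, also highest in S2. The 6 markers of thick ascending limb and distal tubule were highest in S3, at 2, 24.2 and 33.6 TPM, and the 6 of collecting duct in S1, at 29.9, 6.7 and 0.5. In such bulk samples, fewer cells of a type and less RNA per cell cannot be told apart.

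The summed level of the family was close to level along the tubule, while its make-up was not. The 44 genes summed to 459.4 TPM in S1, then 502.8 in S2 and 507.9 in S3, or 0.0459%, 0.0503% and 0.0508% of all TPM. Without Abcc3 the sums were 459.1, 404.2 and 304.9 TPM. Abcc3, a basolateral exporter of glucuronide conjugates, supplied 0.0653% of the family's TPM in S1, then 19.6% in S2 and 40% in S3. The most abundant members in S1 were Abca3 at 71.2 TPM, Abcc2 at 65.6 and Abcb8 at 64.9. In S2 they were Abcc3 at 98.6, Abcb8 at 64.9 and Abca3 at 57.8, and in S3 Abcc3 at 203 TPM, Abcb8 at 68.7 and Abcb6 at 40.8. Subfamily A summed to 101.5, 75.4 and 55.5 TPM, lowest in S3, and subfamily C to 125.7, 190.6 and 232.2 TPM, highest there. Subfamily B stayed within 108.5 to 134 TPM, and subfamily G never exceeded 3.1 TPM without the gene left out.

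**Figure D1:**
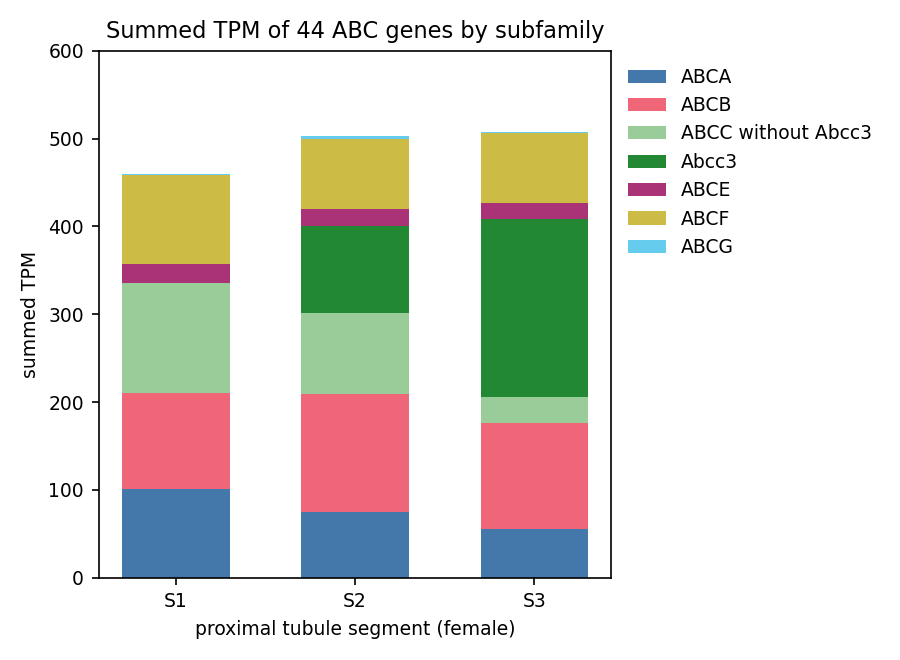
Stacked bars give the summed TPM of the 44 ABC genes in S1, S2 and S3, by subfamily, with Abcc3 apart from the rest of subfamily C. The bars end at 459.4, 502.8 and 507.9 TPM, while the Abcc3 part goes from 0.3 to 98.6 to 203 TPM.

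Of the 25 members compared, 13 spanned 2-fold or more from lowest to highest value, or 52%, beside 33.3% of all genes compared. The highest value lay in S1 for 7 of them (28% of members, beside 10.4% of all genes), in S2 for 4 (16%, beside 12.7%) and in S3 for 2 (8%, beside 10.1%). The 7 were Abca1, Abca2, Abcb9, Abcc2, Abcc4, Abcc5 and Abcc6. The 4 were Abcb1a, Abcb1b, Abcc9 and Abcg1, all but Abcb1b entering the comparison only through S2. The 2 were Abcc1 and Abcc3. The other 12 members stayed within 2-fold over all 3 segments. 11 of the 25 stepped down in order from S1 to S3, and 3 (Abcc1, Abcc3 and Abcf1) stepped up. Rounding of TPM alone could change 2 of the 75 calls: Abcg1 in S1 against S2 and Abcc9 in S2 against S3.

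**Figure D2:**
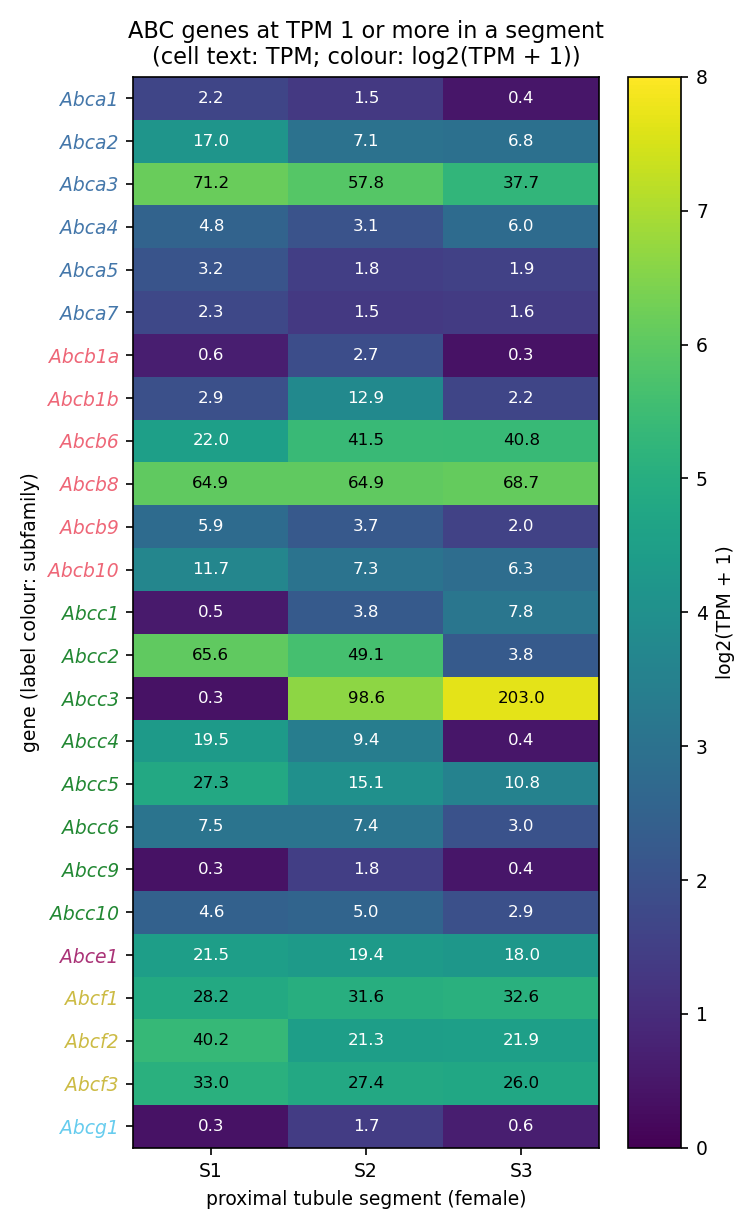
Each row is 1 of the 25 ABC genes compared, with its TPM printed in each segment and log2(TPM + 1) as colour. Abcc3 (0.3, 98.6 and 203 TPM) and Abcc2 (65.6, 49.1 and 3.8 TPM) run in opposite directions, while Abcb8 (64.9, 64.9 and 68.7 TPM) keeps nearly the same colour across.

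Subfamily C, the multidrug resistance-associated proteins and the sulfonylurea receptors, held the greatest differences. 7 of its 8 compared members differed at least 2-fold across the segments, beside 33.3% of all genes. Abcc9, among the 7, entered the comparison only through its S2 value. Abcc3 (chromosome 11, 94343295 to 94393017, GRCm38.p6) was at 0.3 TPM in S1, then 98.6 in S2 and 203 in S3. S1 thus held almost none of it, and S3 held about 2.06 times the S2 level. On the log2(TPM + 1) scale S1 minus S2 was -6.26 and S1 minus S3 -7.29, and just 34 and 35 of the 16053 genes compared had a lower value. The S2 minus S3 difference was -1.03, and it missed 2-fold under quantile normalization (-0.93) and with Gpx3, Kap and the mitochondrial genome's own genes removed (-0.96).

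Abcc1 (chromosome 16, 14361453 to 14474878), an exporter of glutathione conjugates, had the same order at far lower levels: 0.5 TPM in S1, then 3.8 in S2 and 7.8 in S3. The S1 minus S3 difference was -2.55. S2 lay below S3 by less than 2-fold on this scale (-0.87), although the plain TPM ratio was 2.05.

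Abcc2 and Abcc4 had the opposite course. Abcc2 (chromosome 19, 43782308 to 43838332), an apical exporter of glucuronide and glutathione conjugates, was at 65.6 TPM in S1, then 49.1 in S2 and 3.8 in S3. The first segments were close, at a ratio of 1.34, and S3 stood apart, 12.9-fold below S2 and 17.3-fold below S1. Abcc4 (chromosome 14, 118482692 to 118707856), which exports cyclic nucleotides, urate and organic anions, was at 19.5, 9.4 and 0.4 TPM. Its S1 minus S3 difference was 3.87 and its S2 minus S3 difference 2.89, while S1 minus S2, at 0.98, fell just short of 2-fold although the plain TPM ratio was 2.07. It passed 2-fold with pseudocount 0.1 (1.04), median-of-ratios scaling (1.64) and quantile normalization (1.07). With S3 set at 0 and S1 at 1, S2 lay at 0.892 for Abcc2 and 0.747 for Abcc4, nearer S1 in both. For Abcc3 and Abcc1 S2 lay at 0.142 and 0.343, nearer S3.

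Promoter windows of Abcc2 and Abcc4 are shown because both genes were high in S1 and S2 and low in S3. They are the 250 bases before the start in RefSeq (GRCm38.p6, chr19:43782058-43782307 on the plus strand and chr14:118706220-118706469 on the minus strand, the more upstream of the 2 Abcc4 starts in the sequence table), in the 5′ to 3′ sense of the gene. The Abcc4 window precedes a start inside the annotated gene, and its outer end lies 1387 bases within the gene's 5′ end. Capitals mark matches, on either strand, to CCAAT, to the GC box GGGCGG or to the antioxidant response core TGACNNNGC. TATAAA and the HNF1 half-site letters GTTAAT were also searched and are in neither window.
Abcc2: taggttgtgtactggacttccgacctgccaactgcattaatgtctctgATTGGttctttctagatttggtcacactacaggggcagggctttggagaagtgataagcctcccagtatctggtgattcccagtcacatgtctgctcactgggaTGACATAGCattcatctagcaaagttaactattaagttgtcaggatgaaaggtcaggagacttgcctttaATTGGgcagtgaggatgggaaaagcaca
Abcc4: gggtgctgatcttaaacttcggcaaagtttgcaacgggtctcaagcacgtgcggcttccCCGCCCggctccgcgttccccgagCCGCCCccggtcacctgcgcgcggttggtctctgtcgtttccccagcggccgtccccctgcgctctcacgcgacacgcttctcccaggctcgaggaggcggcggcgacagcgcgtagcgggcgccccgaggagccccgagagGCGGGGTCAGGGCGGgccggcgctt
The Abcc2 window has CCAAT on the reverse strand at 202 to 198 and 28 to 24 bases before the start, and TGACNNNGC on the forward strand at 98 to 90. The Abcc4 window has 3 GC boxes, at 191 to 186 and 167 to 162 on the reverse strand and at 16 to 11 on the forward strand, and TGACNNNGC on the reverse strand at 25 to 17, which abuts the last GC box without overlapping it. Among all 32851 windows of this length in the table, 33.8% hold CCAAT, 32.7% the GC box, 10.2% TGACNNNGC, 12.4% TATAAA and 6.43% GTTAAT. GC content was 45.6% in the Abcc2 window and 72% in the Abcc4 window, around a median of 52.4%. A match describes letters and shows no binding. Of the 44 members, 36 had such a sequence, in 40 windows. Of these 40 windows, 4 hold TGACNNNGC, 18 the GC box, 13 CCAAT, 5 TATAAA and 0 GTTAAT. No such sequence was available for the other 8 members, Abcc1 and Abcc3 among them.

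The rest of subfamily C changed less. Abcc5, an exporter of cyclic nucleotides, was at 27.3 TPM in S1, then 15.1 in S2 and 10.8 in S3, and S1 was 2.53-fold above S3. Abcc6, whose loss causes ectopic mineralisation, was at 7.5, 7.4 and 3 TPM, so S1 and S2 were alike and S3 was 2.47-fold below S2. Abcc10, a broad drug exporter, was at 4.6, 5 and 2.9 TPM, within 2-fold throughout. Abcc9, the sulfonylurea receptor SUR2 of ATP-sensitive potassium channels, was at 0.3, 1.8 and 0.4 TPM, with S2 above both others. Kcnj8, a pore subunit that pairs with it, was at 0.4, 7 and 3 TPM. The SUR1 gene Abcc8 did not exceed 0.4 TPM, and Abcc12 was listed at 0 in all 3 segments.

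**Figure D3:**
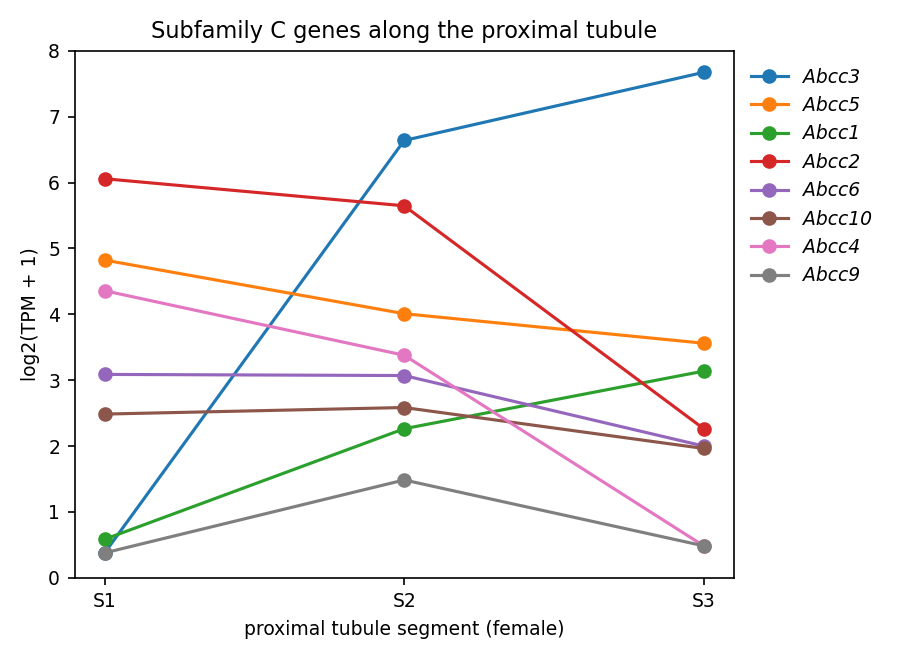
Lines join log2(TPM + 1) of the 8 compared subfamily C genes in S1, S2 and S3. Abcc3 crosses Abcc2 between S1 and S2, and in S3 Abcc2 and Abcc4 are at 3.8 and 0.4 TPM against 203 TPM for Abcc3.

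Subfamily B split by role. Of its 6 compared members, 3 differed at least 2-fold, beside 33.3% of all genes compared. Abcb1a, among the 3, entered the comparison only through its S2 value. The P-glycoprotein genes Abcb1a and Abcb1b, which in rodents share the drug-efflux role of the human MDR1 gene, were highest in S2. Abcb1b (chromosome 5, 8798147 to 8866314) was at 2.9 TPM in S1, then 12.9 in S2 and 2.2 in S3, that is 4.45-fold above S1 and 5.86-fold above S3. Abcb1a (chromosome 5, 8567091 to 8748575) was at 0.6, 2.7 and 0.3 TPM. S2 stood alone in both genes, and S1 and S3 differed by less than 2-fold. The genes are close copies 49571 bases apart, so reads could be divided between them. The next gene in the cluster, Abcb4, a canalicular phosphatidylcholine exporter 27299 bases on, stayed at or below 0.8 TPM. Abcb11, the bile salt export pump, stayed at or below 0.2 TPM.

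The windows upstream of this pair are shown because the genes are neighbours and both were highest in S2 (GRCm38.p6, chr5:8566841-8567090 and chr5:8797897-8798146, both on the plus strand). Capitals again mark the motifs named above.
Abcb1a: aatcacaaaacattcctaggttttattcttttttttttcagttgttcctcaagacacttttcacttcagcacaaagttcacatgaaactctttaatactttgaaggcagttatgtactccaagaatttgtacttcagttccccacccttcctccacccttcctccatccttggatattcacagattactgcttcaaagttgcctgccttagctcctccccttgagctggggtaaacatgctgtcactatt
Abcb1b: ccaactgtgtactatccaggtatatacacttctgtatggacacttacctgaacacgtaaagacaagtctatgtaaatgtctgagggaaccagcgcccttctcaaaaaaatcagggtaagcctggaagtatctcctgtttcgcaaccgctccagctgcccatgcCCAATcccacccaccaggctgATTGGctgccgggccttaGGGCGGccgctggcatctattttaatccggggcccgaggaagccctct
The Abcb1a window holds none of the 5 motifs. The Abcb1b window has CCAAT at 87 to 83 on the forward strand and at 66 to 62 on the reverse strand, and a GC box at 48 to 43 on the forward strand. Set side by side without gaps, 72 of 250 positions are the same letter. GC content was 40.4% and 52.8%.

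The 4 genes highest in S2 are set beside markers that were also highest there. Since they were picked for that peak, the shared peak itself is no result. In S1 and S3, Abcb1b stood at 22.5% and 17.1% of its S2 value, Abcb1a at 22.2% and 11.1%, Abcc9 at 16.7% and 22.2%, and Abcg1, a cholesterol exporter also expressed in macrophages, at 17.6% and 35.3% (0.3, 1.7 and 0.6 TPM). The summed endothelial markers stood at 10.6% and 39.5%, the immune markers at 18.7% and 31.4%, and the stromal and mural markers at 12.8% and 11.5%. S2 exceeded S1 by 2-fold or more for all 10 endothelial and all 10 immune markers, and for 5 of the 7 stromal and mural markers compared. S2 exceeded S3 likewise for 10, 9 and 5 of them. Among the 19 members below 1 TPM throughout, 16 were above 0 somewhere, and 13 of these (81.2%) had their highest value in S2. The same held for 71.1% of all 24128 such genes. Among the S2 markers of the tubule itself, Slc22a6 (OAT1, for uptake of organic anions) was at 6, 216.8 and 1 TPM. Slc13a3, for uptake of dicarboxylates, was at 2.2, 226.8 and 1.1 TPM. The remaining S2 marker, Slc22a8, was at 297.3, 349.1 and 0.7 TPM, with S1 and S2 within 2-fold (-0.23). All were highest in S2 too. S1 was above S3 for all of these transporters. The same held for Abcb1a and Abcb1b, by less than 2-fold on the log2(TPM + 1) scale (0.30 and 0.29). The stromal and mural sums of S1 and S3, 3 and 2.7 TPM, were too close to order, given the rounding of each marker. Between these segments 0 of the 7 stromal and mural markers compared differed 2-fold. S1 was below S3 for Abcg1 (-0.30) and the endothelial sum, while for Abcc9 (-0.11) rounding alone allows no difference. The immune sum was also lower in S1 than in S3, but its order was reversed without Csf1r, at 0.5, 32 and 46.9 TPM. Cd74, in the same sum, was at 50.1, 192.7 and 37.8 TPM. Of the 10 immune markers, 1 had S3 above S1 by 2-fold or more and 0 the reverse, beside 13.1% and 10.5% of all genes. The part of other cells in the S2 values was not tested.

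**Figure D4:**
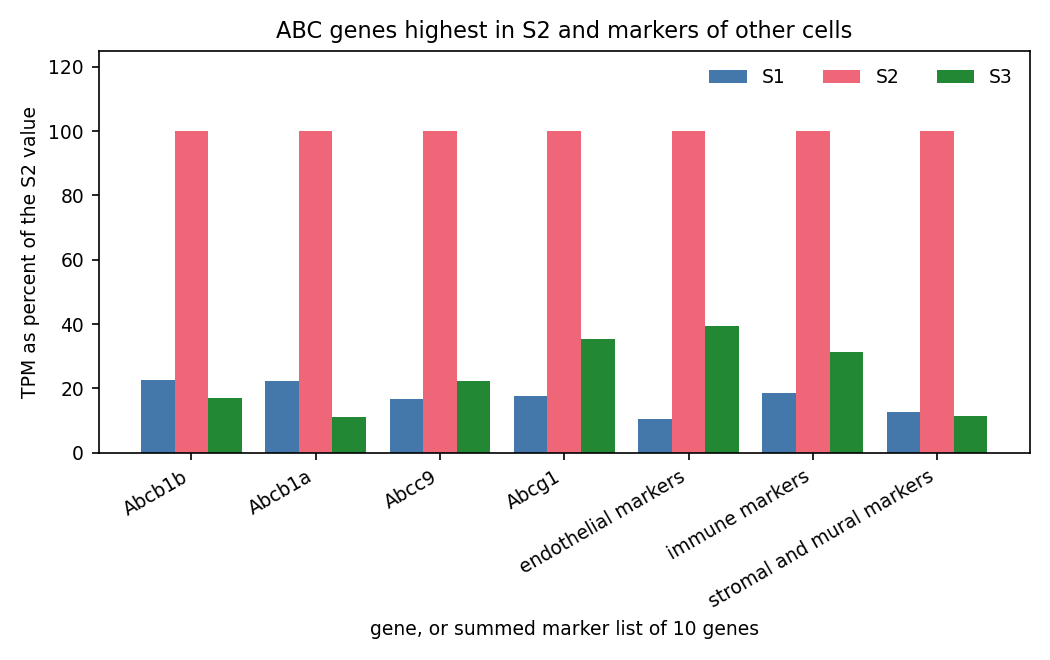
Bars give TPM in S1, S2 and S3 as percent of the S2 value for the 4 ABC genes that were at least 2-fold higher in S2 than in another segment and highest there, and for the sums of 3 lists of 10 markers each. In every item S1 and S3 stay well under S2, with Abcb1b at 22.5% and 17.1%.

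The mitochondrial members of subfamily B, which serve haem synthesis and potassium handling in the organelle, stayed within 2-fold. Abcb8, part of a mitochondrial potassium channel, was at 64.9 TPM in S1, then 64.9 in S2 and 68.7 in S3. It shares 5163 annotated bases with Cdk5 (40, 27.4 and 31.7 TPM), and since the counting is not stated to use strand, reads there could be assigned to either. Abcb6, linked to porphyrin transport, was at 22, 41.5 and 40.8 TPM, lower in S1 by less than 2-fold (-0.89). Abcb10, an inner-membrane transporter of early haem synthesis, was at 11.7, 7.3 and 6.3 TPM. The 3 genes together gave 98.6, 113.7 and 115.8 TPM. Of 12 other genes of iron-sulfur and haem synthesis, 2 had S1 above S3 by 2-fold or more and none the reverse, beside 10.5% and 13.1% of all genes. These were Isca1, an iron-sulfur assembly factor, at 61.1, 29.5 and 27.6 TPM, and Cpox, the haem enzyme coproporphyrinogen oxidase, at 50.1, 21.5 and 1.9 TPM. Abcb9, a lysosomal peptide transporter, was at 5.9, 3.7 and 2 TPM, 2.95-fold higher in S1 than in S3. Abcb5 was listed at 0 throughout.

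Subfamily A, the lipid transporters, was dominated by Abca3, known for loading phospholipid into lamellar bodies of the lung. It was at 71.2 TPM in S1, then 57.8 in S2 and 37.7 in S3, a step down within 2-fold (0.90). Its neighbour Abca17, which overlaps it by 138 bases, stayed at or below 0.1 TPM. Abca2, an endolysosomal sterol and lipid transporter, was at 17, 7.1 and 6.8 TPM, 2.39-fold higher in S1 than in S2. Abca1, which loads cholesterol onto apolipoprotein A-I, was at 2.2, 1.5 and 0.4 TPM. Abca4, a retinoid-lipid flippase of photoreceptors, was at 4.8, 3.1 and 6 TPM. Abca5 was at 3.2, 1.8 and 1.9 TPM and Abca7, a phospholipid exporter, at 2.3, 1.5 and 1.6. All 6 compared members were higher in S1 than in S2, but only Abca2 by 2-fold. The 10 others (Abca6, Abca8a, Abca8b, Abca9 and Abca12 to Abca17) did not exceed 0.6 TPM.

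Lipid partners had no common course. Apoe, the lipid-carrying apolipoprotein E, was at 2899 TPM in S1, then 565.1 in S2 and 62.9 in S3. Apoa1 was at 0.2, 7 and 10.4 TPM. Of the 8 partners compared, 2 had S1 above S3 by 2-fold or more and 3 had S3 above S1, against the same 10.5% and 13.1%. In subfamily G, Abcg5 and Abcg8, the sterol exporters of gut and liver, and Abcg3 and Abcg4 stayed at or below 0.5 TPM.

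Abce1, which splits ribosomes after termination, and the translation factors Abcf1, Abcf2 and Abcf3 stayed within 2-fold throughout. Abce1 was at 21.5 TPM in S1, then 19.4 in S2 and 18 in S3. Abcf1 was at 28.2, 31.6 and 32.6 TPM, Abcf2 at 40.2, 21.3 and 21.9 and Abcf3 at 33, 27.4 and 26. Abcf2 came nearest to 2-fold, with S1 above S2 by 0.89. None of 9 partner genes of ribosome recycling and translation differed 2-fold in any comparison, beside 33.3% of all genes compared that spanned 2-fold.

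S1 against S2 gave 1 member at least 2-fold higher in S1 (Abca2), or 4%, beside 6.62% of all genes, and 6 higher in S2 (24%, beside 17.7%). The 6 were Abcb1a, Abcb1b, Abcc1, Abcc3, Abcc9 and Abcg1. Of these, Abcb1a, Abcc9 and Abcg1 could enter the comparison only through S2. The median of the 25 differences was 0.26, beside -0.18 for all genes. This split depended on the scaling: median-of-ratios scaling gave 9 higher in S1 and 3 higher in S2, a share of 75% against 14.3%, and quantile normalization 3 and 3, a share of 50%. Those scalings moved the median of all genes from -0.18 to 0.48 and 0.09. Abcc3, Abcc1 and Abcb1b were the 3 higher in S2 under both.

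S2 against S3 gave 6 members higher in S2 (24%, beside 8.74% of all genes): Abcb1a, Abcb1b, Abcc2, Abcc4, Abcc6 and Abcc9. Of these, Abcb1a and Abcc9 could enter the comparison only through S2. Just Abcc3 was higher in S3 (4%, beside 2.24%). The median was 0.19, beside 0.12 for all genes. The share higher in S2 was 85.7%, and it was 57.1% with median-of-ratios scaling (4 and 3), 66.7% with quantile normalization (4 and 2) and 100% with Gpx3, Kap and the mitochondrial genome's own genes removed (6 and 0).

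S1 against S3, the ends of the tubule, gave 7 members higher in S1 (28%, beside 10.5% of all genes) and 2 higher in S3 (8%, beside 13.1%). The median was 0.34, beside -0.01 for all genes. Abcc4 (3.87) and Abcc2 (3.79) led on the S1 side, and the other 5 lay between 1.09 for Abcc6 and 1.26 for Abcc5. Against both other segments at once, S1 was at least 2-fold higher for 1 member (Abca2, beside 6.03% of all genes). S2 was so for 3 (Abcb1a, Abcb1b and Abcc9, beside 5.22%) and S3 for 1 (Abcc3, beside 2.00%). Abcb1a and Abcc9 entered the comparison only through S2.

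**Figure D5:**
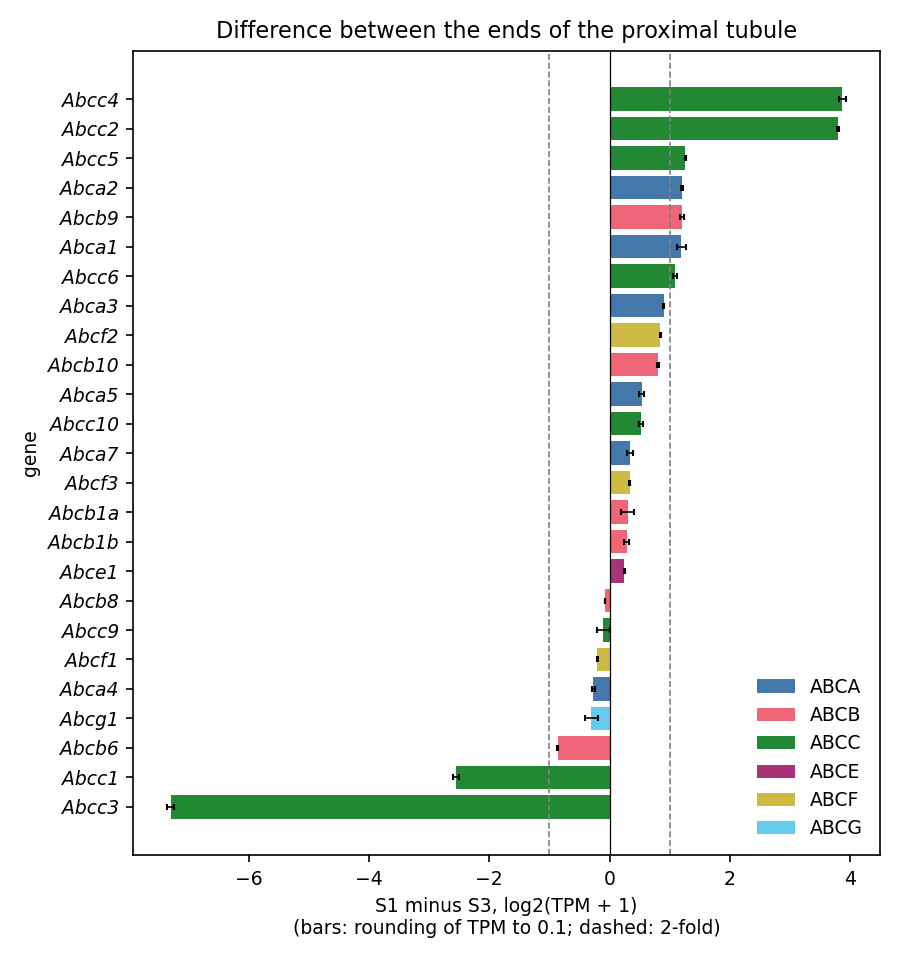
Bars give S1 minus S3 on the log2(TPM + 1) scale for the 25 genes compared, coloured by subfamily, with thin bars for what rounding to 0.1 TPM allows and dashed lines at 2-fold. The extremes, Abcc4 at 3.87 and Abcc3 at -7.29, are both of subfamily C.

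Genes known to act with the family were counted the same way. Of 9 nuclear receptors and stress regulators of ABC genes, 4 had S1 above S3 by 2-fold or more and 1 had S3 above S1, beside 10.5% and 13.1% of all genes. Nr1h4, the bile acid receptor FXR, was at 117.8, 45.4 and 29.4 TPM and Rxra, the common receptor partner, at 41, 15.4 and 9. Nr1h3, the oxysterol receptor LXR alpha, was at 51.4, 91.2 and 128.5 TPM. Nr1i2 and Nr1i3, the xenobiotic receptors PXR and CAR, were low, at 2.6, 1.8 and 0.6 and at 0.7, 1.3 and 0.8 TPM. Nfe2l2, the regulator NRF2, stayed between 26.2 and 32.4 TPM. Of the 6 brush-border scaffold and linker genes, 1 had S1 above S3 by 2-fold or more and 1 had S3 above S1. Msn, the actin linker moesin, was at 63.6, 51.4 and 30 TPM, and Slc9a3r2, the scaffold NHERF2, at 11.8, 60 and 26.7. Pdzk1, which binds apical transporters, was at 1482, 1075 and 1165 TPM, and Ezr, another actin linker, at 286.3, 204.5 and 270.7. Some family members carry other symbols. Cftr, the chloride channel of subfamily C, was at 2.3, 0.5 and 0.1 TPM, and the antigen peptide transporter genes Tap1 and Tap2 at 1.4, 5.6 and 2.7 and at 8.6, 13.4 and 9.3.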

How the data were processed

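RNA-seq of hand-dissected female proximal tubule segments was analysed. The authors deposited TPM, 1 value per gene and segment. The unit follows from column totals of 999907, 999988 and 999911 TPM in S1, S2 and S3. Per the submitters' processing notes the build was mm10 and the tools included STAR and RSEM. Their roles, the annotation, and the way libraries were merged into 1 value are not given in the sources used here. Per the labels' protocols, cDNA was made with a SMARTer kit and tagmented, with no strand marking or molecular identifiers named. 5 further value columns fit none of the labelled RNA groups and were left aside. Some genes are not reported here, and member counts and sums leave them out.

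Genes reaching 1 TPM in any segment were compared as log2(TPM + 1), a pseudocount of 1, in Python 3.11.15 with pandas 2.3.3, and counted at 2-fold, with ties at exactly 2-fold included. The code was tested on simulated data. All 3 values were to be given for members reaching 10 TPM, or 2-fold different and reaching 2 TPM. Values of Abca4, Abca5, Abca7, Abcc9, Abcc10 and Abcg1 were added beyond that rule. Members and lists were chosen with earlier results of these data known. Alternatives were other pseudocounts, filters, scalings and a 1.5-fold size. All 44 gene IDs carry the same symbol in the reference names, and Gcn1 is listed as Gcn1l1. Coordinates and sequences, 1-based, are from RefSeq (GRCm38.p6).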

Additional observations from a re-analysis of the deposited data

How the results depend on the processing

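No paired analysis was possible because the table holds 1 value per segment and none per library, so no library could be left out either. Of the 23 member differences counted at 2-fold, 10 stayed past 2-fold under every alternative run at that size. They belong to 6 genes: Abcc1 (S1 against S3), Abcc2 and Abcc4 (S3 against both others), Abcc3 (S1 against both others), Abcc5 (S1 against S3) and Abcb1b (S2 against both others). The other 13 were lost under at least 1, most often a pseudocount of 5 (12 differences). A larger pseudocount makes every difference smaller by arithmetic, most where TPM is low. The cause of the losses under the other alternatives was not tested.

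For S1 against S2 the numbers were 1 higher in S1, 6 higher in S2 and 7 in all. With pseudocount 0.1, 2 were higher in S1. With pseudocount 5 there were 0 higher in S1 and 2 in S2, 2 in all, and with a TPM filter of 5 there were 3 higher in S2 and 4 in all. Median-of-ratios scaling gave 9, 3 and 12, quantile normalization 3 and 3, and a 1.5-fold size 6 higher in S1 and 13 in all. For S2 against S3 the main numbers were 6, 1 and 7. Pseudocount 5 gave 3 higher in S2 and 4 in all, and a 1.5-fold size gave 11, 3 and 14. The number higher in S3 was 2 with pseudocount 0.1, 3 with median-of-ratios scaling, 2 with quantile normalization and 0 with Gpx3, Kap and the mitochondrial genome's own genes removed. For S1 against S3, 9 in all and 7 higher in S1, pseudocount 5 gave 5 and 3.

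Members highest in S1 numbered 3 with pseudocount 5, 11 with median-of-ratios scaling and 11 at a 1.5-fold size, instead of 7. Those highest in S2 numbered 1 with pseudocount 5, 1 with a TPM filter of 5, 2 with median-of-ratios scaling and 2 with quantile normalization, instead of 4. The median difference of members for S1 minus S2 (0.26) was 0.15 with pseudocount 5, -0.11 with no filter, 0.82 with median-of-ratios scaling and 0.10 with Gpx3, Kap and the mitochondrial genome's own genes removed. For S2 minus S3 (0.19) it was -0.26 with median-of-ratios scaling, 0.059 with quantile normalization and 0.39 after that removal. For S1 minus S3 (0.34) it was 0.65 with pseudocount 0.1, 0 with no filter, 0.52 with a TPM filter of 5, 0.52 with median-of-ratios scaling and 0.48 with quantile normalization.

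Median-of-ratios scaling divided S1, S2 and S3 by 0.794, 1.3 and 0.909, from 25489 genes above 0, many near the rounding step of 0.1 TPM. Taken from the 11008 genes at 1 TPM or more in all segments, an alternative chosen after seeing the data, the divisors were 1.01, 1.01 and 0.97 and the split for S1 against S2 was again 1 and 6. Depth is unknown, so values near 0.1 TPM carry no error estimate.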
